A study of Solanum lycopersicum and Arabidopsis thaliana and Cannabis sativa with 28 samples.

Results

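H3K9ac was compared between untreated (ctrl) and jasmonate-treated (2 h JA) seedlings of tomato (Solanum lycopersicum, dwarf variety Micro-Tom) by PHILO ChIP-seq, a high-throughput chromatin immunoprecipitation protocol for little plant material, followed by sequencing. All 17455 domains of the deposited table of 2 h JA against ctrl are described, of 52544 domains in the 3 domain tables of the series. A domain is a stretch of neighboring windows that the authors' caller found enriched in 2 h JA reads, joined and then compared with ctrl. The seedlings were whole, 2 weeks old and grown in long days, and JA was applied as a gas in a transparent container for 2 h. Each group had 3 libraries, which the authors merged before counting, so that each domain has 1 read count for 2 h JA and 1 for ctrl and no replicate error. Groups follow the library titles. For all 6 libraries the labels enter none as the treatment, and the study's own sample list gives a treatment that differs from the library name for 2 of them, replicate 3 of each group. Whether these libraries were exchanged could not be checked in merged counts. Whole seedlings mix many cell types, and a change in the share of cells cannot be told apart from a change per cell.

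Jasmonates are plant hormones of wounding, insect attack and fertility. The active hormone brings the receptor COI1 together with JAZ repressors, which are then degraded, and transcription factors such as MYC2 are freed to activate defense genes. In tomato these include genes of proteinase inhibitors, which block the digestive enzymes of insects, and of phenolic compounds. Acetylation of lysine 9 of histone H3 (H3K9ac) is a mark of active promoters and enhancers, and H3K4me3 is a mark of active promoters. The question addressed by the comparison is where H3K9ac rises shortly after JA.

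The change of a domain is given as log2 of its 2 h JA reads divided by its ctrl reads, minus the median of that value over all domains, so that 0 stands for the median domain. That domain held 1.05 2 h JA reads for each ctrl read. Relative to the study's totals of uniquely aligned reads, all changes would lie 0.18 higher. Which of these scales is nearer to the level of H3K9ac was not tested. The table lists only domains that the authors' caller placed higher after JA at an FDR of at most 0.05, on its own scale. Domains that lost H3K9ac were not analysed here. Intervals of single domains are 95% Clopper-Pearson intervals of the read counts and cover counting error only. Intervals of shares and medians are 95% binomial intervals over domains, which are not replicates of the treatment. They treat domains as independent, although domains with large changes lay near each other, and are therefore likely too narrow.

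Most domains changed little relative to the median domain. The quartiles of the change were -0.08 and 0.10, the lowest value was -0.26 and the highest 4.82. A change of at least 0.5, which is 1.41-fold above the median domain, was found in 473 domains (2.71% of all), and a change of at least 1, which is 2-fold, in 94 (0.539%). Chromosomes 9 and 12 held 7 and 29 of the domains at or above 1, and without these chromosomes 58 domains reached 1. With a minimum of 50 ctrl reads 55 did. Both settings leave fewer domains in all, so a lower count is not in itself a lower share. With the study's library totals as the scale, 1056 domains reached 0.5 and 150 reached 1. The 94 domains had a median of 29.1 ctrl reads per kb and of 95.6 2 h JA reads per kb. The median of all domains was 88.6 ctrl reads per kb and 94.1 2 h JA reads per kb. Domains chosen for a high ratio from a list called on 2 h JA reads have few ctrl reads by this choice, and the densities are given as a description. Of the 94, 2 lay above the median ctrl density of all domains, and 50 lay above the median 2 h JA density. Among the 473 domains, these numbers were 27 and 163. No domain had 3 ctrl reads or fewer, and the fewest ctrl reads in a domain were 11.

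The change was related to how densely a domain was covered in ctrl. The domains were divided into 5 density classes of 3491 domains each by their ctrl reads per kb. In class 1, with 3.08 to 49.7 ctrl reads per kb, the median change was 0.08 (0.07 to 0.09), and 316 domains (9.05%) reached 0.5. In class 2 the median was 0.01, and 103 domains (2.95%) reached 0.5. In class 3 the median was -0.02, and 41 domains (1.17%) did so. In class 4, 8 domains (0.229%) and in class 5, with 134 to 435 ctrl reads per kb, 5 domains (0.143%) reached 0.5, with medians of -0.02 in both classes. Of the 94 domains at or above 1, 82 lay in class 1, 8 in class 2, 3 in class 3, 1 in class 4 and 0 in class 5. Spearman's rho between change and ctrl reads per kb was -0.26 over the 17455 domains. As the ctrl reads are part of the change, this is a description of the table and shares its counting error.

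**Figure D1:**
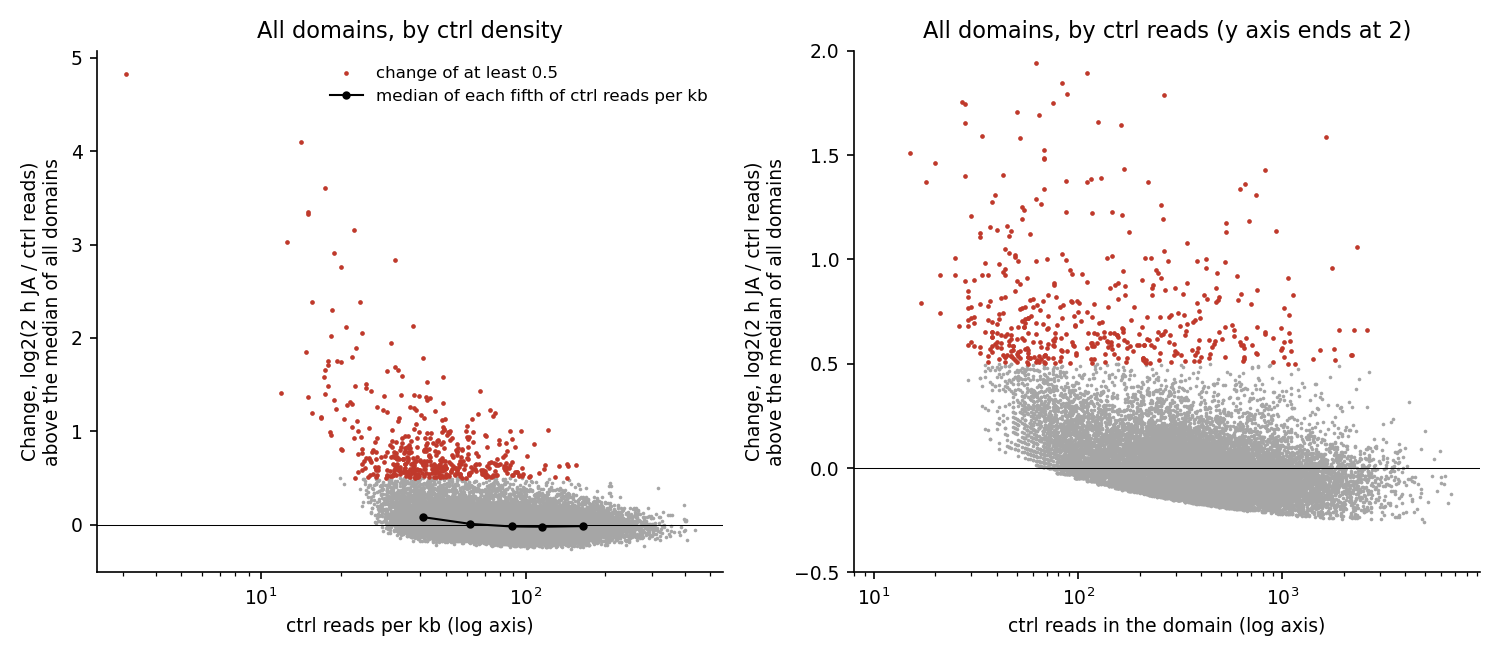
Each point is 1 of 17455 domains. The change (y axis, log2) is plotted against ctrl reads per kb (left) and ctrl reads in the domain (right), both on log axes, with domains at or above 0.5 in red and the median of each density class in black on the left. The lower edge of the cloud on the right falls from 0.08 at up to 50 ctrl reads to -0.26 above 800 ctrl reads.

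The limit of detection moved with the read number in the same direction. Among the 247 domains with at most 50 ctrl reads, the lowest change was 0.08 and 122 domains (49.4%) reached 0.5. Among the 1537 domains with 51 to 100 ctrl reads, the lowest change was -0.05, and 8.00% reached 0.5. Among the 5321 domains with 201 to 400 ctrl reads, the lowest change was -0.17, and 1.37% did so. Above 800 ctrl reads (3033 domains), the lowest change was -0.26, and 1.06% reached 0.5. The fewer ctrl reads a domain held, the higher was the lowest change listed. Above 200 ctrl reads, the share at or above 0.5 stayed between 1.01% and 1.37%. The part of this limit in the trend over the density classes was not tested.

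The spread of the change was compared with the counting error. In class 1, the SD of the change was 0.33, and the SD that counting alone would give was 0.18 for the median domain. The SD estimated from the quartiles, which is little affected by the domains with large changes, was 0.19. In class 5, the SD was 0.11, the SD from the quartiles 0.10 and the counting SD 0.10. In class 3, where domains were widest, the SD from the quartiles was 0.12 and the counting SD 0.09. These 2 values were 0.145 and 0.119 in class 2, and 0.110 and 0.088 in class 4. The SD from the quartiles was thus close to the counting SD in classes 1 and 5 and above it in classes 2 to 4. Class 1 had a long upper tail. The limit of the list cuts off the lower side of the spread in every class, and the counting SD takes no account of this. The comparison therefore cannot show how much of the spread was counting error. Median domain sizes were 3199 bp in class 1, 6199 bp in class 3 and 2199 bp in class 5.

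H3K4me3 domains of untreated Micro-Tom seedlings, called against IgG on the same assembly, were used as a readout that the H3K9ac counts did not enter. Of all H3K9ac domains, 69.6% overlapped an H3K4me3 domain by at least 1 bp. The share was 7.10% in class 1, 49.9% in class 2, 92.9% in class 3, 98.5% in class 4 and 99.7% in class 5. With H3K4me3 over at least 50% of the domain, the share over all domains was 29.5%. By the 1 bp rule, listed domains dense in ctrl reads thus nearly always overlapped H3K4me3, and sparse ones seldom. Over all classes, 35.9% of the domains at or above 0.5 overlapped H3K4me3, compared with 70.6% of the domains below 0.5. Within class 1 the order was the opposite. There, 70 of 316 domains at or above 0.5 (22.2%, 17.7% to 27.1%) overlapped H3K4me3, and 178 of 3175 domains below 0.5 (5.61%, 4.83% to 6.46%) did. The class 1 domains at or above 0.5 had medians of 35.5 ctrl reads per kb and 2199 bp, and the others of 41.2 and 3399 bp. The part of density and size in these shares was not tested. In class 2 the shares were 53.4% and 49.8%, and in class 3 they were 80.5% (33 of 41) and 93.1%. The shares are descriptions of domains in merged libraries, and no test of their difference was made. H3K4me3 was not measured after JA.

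The 12 chromosomes differed in how many of their domains changed. On chromosome 12, 75 of 1320 domains (5.68%, 4.50% to 7.07%) reached 0.5, which was the highest share of all chromosomes. Chromosome 10 followed with 55 of 1455 (3.78%), chromosome 2 with 24 of 738 (3.25%) and chromosome 7 with 39 of 1353 (2.88%). The lowest shares were 1.93% on chromosome 11 (20 of 1038) and 1.95% on chromosome 1 (47 of 2410). The intervals of chromosomes 12 and 10 overlapped, and those of the other 10 chromosomes except chromosome 2 ended below that of chromosome 12. As these intervals treat neighboring domains as independent, no difference between chromosomes is inferred from them. Chromosome 12 held 7.56% of all domains and 29 of the 94 domains at or above 1 (30.9%). Chromosome 8 held 12 of the 94, chromosome 2 held 10, chromosome 11 held 1, and chromosomes 1 and 4 held 2 each.

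The median changes of the chromosomes ran from -0.02 (-0.024 to -0.0084) on chromosome 6 to 0.02 (0.0098 to 0.031) on chromosome 12. The place of chromosome 12 was the same among sparse domains alone. In density class 1, 54 of its 292 domains (18.5%, 14.2% to 23.4%) reached 0.5, against 8.19% on the other chromosomes together and 5.83% to 13.1% on each of them. Its share of class 1 domains, 22.1%, lay within the range of 16.6% to 24.0% over all chromosomes. Much of the excess came from 3 windows of 1 Mb, from 6 to 7, 61 to 62 and 62 to 63 Mb, which held 153 domains, with 30 at or above 0.5 and 17 at or above 1. Without them, 3.86% of the domains of chromosome 12 reached 0.5, against 2.47% on the other chromosomes. The other chromosomes kept their richest windows, so that these shares are not on the same footing. The 3 windows of chromosome 12 were chosen after their values were seen.

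**Figure D2:**
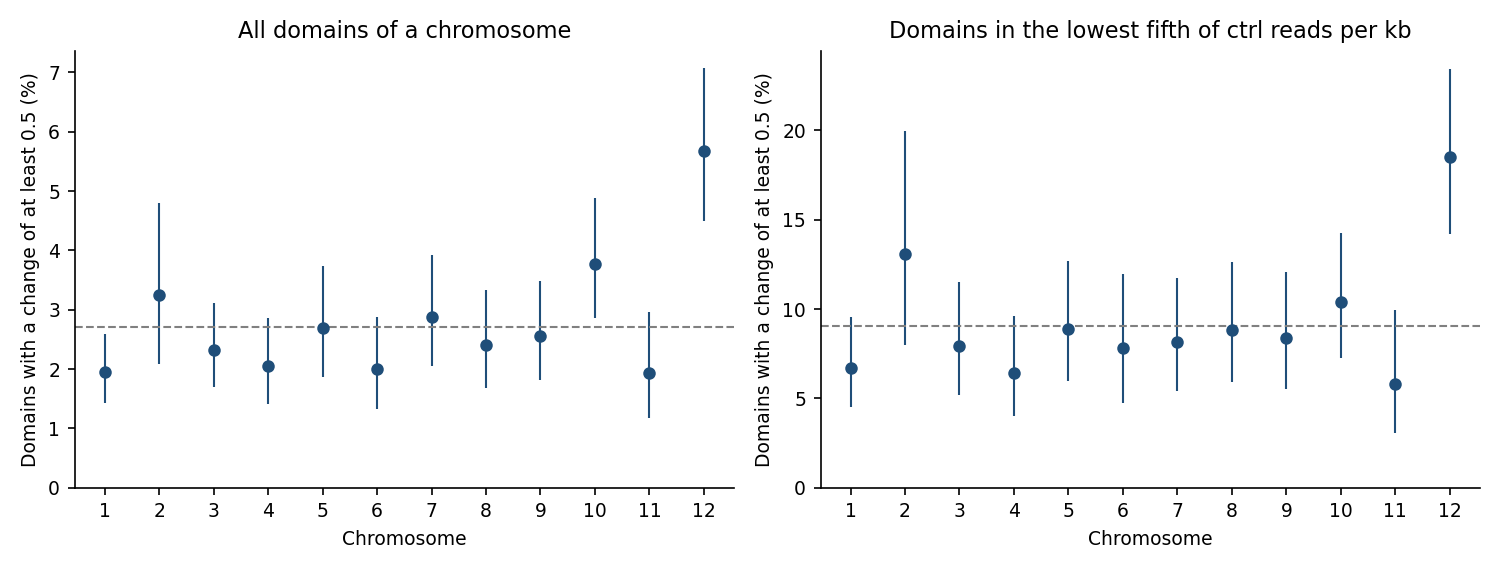
The share of domains with a change of at least 0.5 (y axis, %) is plotted for each of the 12 chromosomes, for all domains (left) and for density class 1, the domains with the fewest ctrl reads per kb (right). Bars are 95% Clopper-Pearson intervals over domains and dashed lines the shares over all chromosomes, 2.71% and 9.05%. Chromosome 12 is highest in both panels, with 5.68% and 18.5%.

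H3K9ac domains crowded at the chromosome ends. Positions were scaled from 0 to 1, with 1 at the last domain of either tomato table, since chromosome lengths were not used here. The outer parts, below 0.2 or above 0.8, held 12774 domains (73.2%), with a median size of 4399 bp and a median gap of 5401 bp to the next domain. The interior held 4681 domains (26.8%), with a median size of 2999 bp and a median gap of 29401 bp. The first bin of 10 held 3884 domains and the last 4681, whereas bins 3 to 6 held between 520 and 554 each. H3K4me3 domains had the same kind of distribution, with 79.1% in the outer parts. On chromosome 2, the first H3K9ac domain lay at a relative position of 0.27, as did the first H3K4me3 domain, and on the other chromosomes the first H3K9ac domain lay between 0.00053 and 0.022.

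The change after JA was compared between the outer parts and the interior. Its median was -0.0048 (-0.0076 to -0.0020) in the outer parts and 0.014 (0.0088 to 0.019) in the interior. These intervals did not overlap, but they treat neighboring domains as independent, and no difference is inferred from them. In density class 1 the order was the opposite, with medians of 0.083 in the outer parts and 0.074 in the interior. In class 5 they were -0.021 and -0.011. Class 1 made up 18.9% of the outer and 22.9% of the interior domains, and class 5 18.5% and 24.0%. A change of at least 0.5 was reached by 357 outer domains (2.79%, 2.52% to 3.10%) and by 116 interior domains (2.48%, 2.05% to 2.96%). A change of at least 1 was reached by 71 (0.556%) and 23 (0.491%). The shares at or above 0.5 by bin ran from 1.99% in bin 6 to 3.27% in bin 3, and the intervals of these bins overlapped. Domains with large changes were thus spread along the chromosomes about as the domains themselves were.

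**Figure D3:**
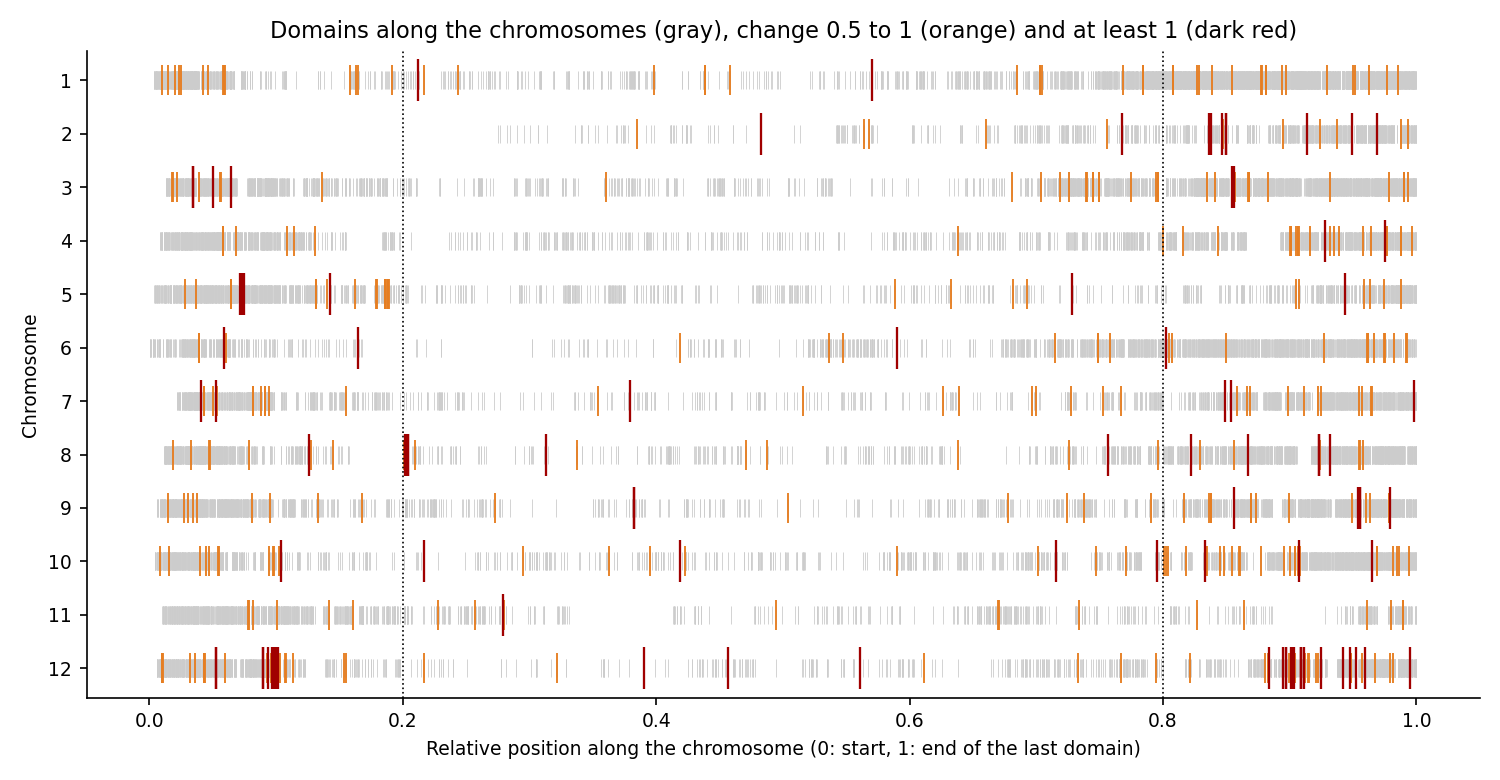
Each tick is a domain at its relative position (x axis) on 1 of 12 chromosomes (y axis), in gray for all domains, orange for a change of 0.5 to 1 and dark red for a change of at least 1. Gray ticks crowd below 0.2 and above 0.8, between the dotted lines they are sparse, and dark red ticks bunch on chromosome 12 near 0.1 and 0.9.

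Domains with large changes lay next to each other more often than the background share. Neighboring domains were 801 bp to 4650601 bp apart, with a median of 8001 bp. Of the domains that followed a domain at or above 0.5 along the chromosome, 83 of 473 (17.5%, 14.2% to 21.3%) also reached 0.5. Of those that followed a domain below 0.5, 390 of 16970 (2.30%) did. When only following domains of density class 1 were counted, the shares were 38.0% (57 of 150) and 7.76% (259 of 3339). Over all pairs, changes of neighbors were weakly related, with a Spearman's rho of 0.10 across 17443 pairs.

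The share was also split by distance. It was 25.4% (30 of 118) for gaps of up to 1.5 kb, 20.4% (10 of 49) for 1.5 to 3 kb, 15.5% (9 of 58) for 3 to 5 kb, 18.0% (22 of 122) for 5 to 20 kb and 12.5% (11 of 88) for 20 to 100 kb. Beyond 100 kb it was 2.63% (1 of 38, 0.067% to 13.8%), next to 2.67% after a domain below 0.5. That interval ended below the interval of the closest class only, which was 17.9% to 34.3%. Intervals overlapped between all neighboring distance classes, so that no order of neighboring classes is given. Neighbors in the closest class can also be parts of 1 wider stretch that the caller split, and joining domains less than 2 kb apart lowered the share to 13.6%.

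**Figure D4:**
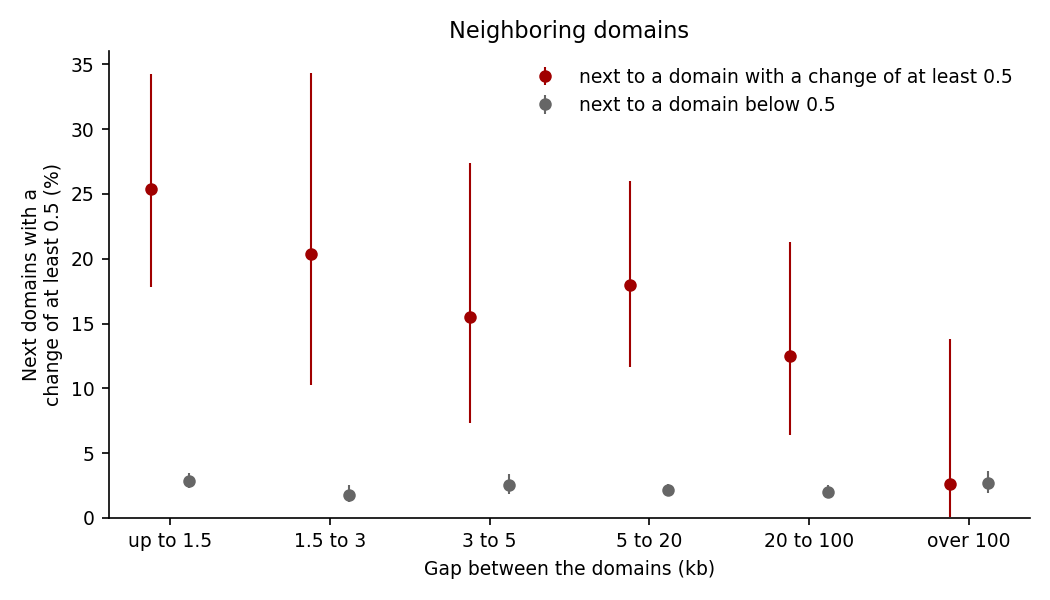
The share of next domains with a change of at least 0.5 (y axis, %) is plotted by the gap between the domains (x axis, kb) after a domain at or above 0.5 (dark red) or below 0.5 (gray). Bars are 95% Clopper-Pearson intervals over pairs of domains. Dark red points lie between 12.5% and 25.4% up to 100 kb and at 2.63% beyond, and gray points between 1.77% and 2.87%.

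Runs of at least 3 consecutive domains at or above 0.5, with gaps under 20 kb, occurred 13 times and held 42 domains. The run with the most domains, 5 over 40199 bp, was at chr12:3556400-3596599 of SLM_r2.0. Its domains changed by 0.59, 1.69, 0.85, 1.64 and 0.51, and together they held 2416 2 h JA and 1315 ctrl reads. The domain before the run changed by 0.20 and the domain after it by 0.13. A run of 4 domains at chr8:60909400-60956599 held 3396 and 1654 reads, with changes of 0.95, 1.48, 1.37 and 0.83 between flanking domains at 0.00 and 0.08. A run of 3 at chr3:57851800-57894799 changed by 0.91, 0.56 and 1.43, with 5976 2 h JA and 2870 ctrl reads and flanking changes of 0.27 and 0.18. Genes under these runs were not analysed here, as no gene annotation for SLM_r2.0 was at hand.

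The highest change of the table, 4.82 (4.11 to 5.64), ended a run of 3 domains at chr12:61899000-61937399. The domain at chr12:61932200-61937399 held 477 2 h JA and 16 ctrl reads, 91.7 and 3.08 reads per kb, the lowest ctrl density of all domains. The domains before it changed by 1.14 and 1.26, and the next domain, 136 ctrl reads per kb, by -0.04. This stretch lies in the window from 61 to 62 Mb, in which 11 of 47 domains reached 0.5 and 8 reached 1. In the window from 6 to 7 Mb of the same chromosome, 12 of 61 domains reached 0.5 and 7 reached 1. A run at chr12:6101600-6115799 in it changed by 3.15, 1.71 and 0.60, with 169, 172 and 185 2 h JA reads over 18, 50 and 116 ctrl reads. The domains on either side, both of density class 5, changed by -0.08 and 0.04.

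Of 609 windows of 1 Mb with at least 5 domains, 379 held no domain at or above 0.5 and 18 held at least 5 such domains. The window with the highest median, 0.33 over 14 domains, was from 13 to 14 Mb of chromosome 8. Its first 5 domains, at chr8:13280000-13488399, changed by 0.90, 1.89, 1.44, 1.21 and 1.04. They held 405, 431, 476, 401 and 570 2 h JA reads over 206, 110, 167, 164 and 263 ctrl reads. They were sparse in ctrl, with 22.9 to 48.7 reads per kb, and no other domain lay between them over 208399 bp. Of the 9 domains that followed in the window, 1 reached 0.5. The next 4 windows by median were on chromosome 10 from 21 to 22 Mb (0.26, 6 domains), chromosome 1 from 25 to 26 Mb (0.24, 10 domains), and chromosome 5 from 53 to 54 Mb (0.23, 7 domains) and from 23 to 24 Mb (0.16, 6 domains). None of these 4 held a domain at or above 0.5.

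The gene loci that the study pairs with domains were read with their neighbors, first the repressor and then the defense genes. JAZ proteins repress MYC2, and their genes are themselves induced by JA. The domain that the study's size list pairs with SlJAZ2, at chr1:671000-690199, held 3845 2 h JA and 2654 ctrl reads, 200 and 138 reads per kb. Its change was 0.46 (0.39 to 0.53), below the 0.5 used here, from a ctrl density in class 5. Only 5 domains of that class reached 0.5. The domain before it, at chr1:637600-670199, changed by 0.29 (0.22 to 0.37), and those beyond on either side by 0.00 and 0.02. The name follows the study's list. The RefSeq annotation of another assembly, SLM_r2.1, places its only gene of that name on another chromosome.

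Hydroxycinnamoyl CoA quinate transferases make chlorogenic acid, a phenolic compound of defense. The study's list pairs the transferase genes Solyc12g096770, Solyc12g096790 and Solyc12g096800 with the domain at chr12:67741600-67780199. That domain held 5100 2 h JA and 2324 ctrl reads. Its density was 60.2 reads per kb in ctrl and 132 after JA, a change of 1.06 (0.99 to 1.13). The neighbors changed by 0.10 and 0.02 before and by 0.00 and -0.11 after the domain. Reads between listed domains were not counted, so that where the change ended is not known. The next domain was denser in both libraries, with 201 2 h JA and 190 ctrl reads per kb.

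The domains that the study's list pairs with proteinase inhibitor genes on chromosome 9 were in a wider stretch. The names follow that list, and the positions of the genes were not checked. From chr9:66555600 to 66715599, over 159999 bp, 6 consecutive domains reached 0.5, with changes of 0.75, 1.75, 0.96, 1.79, 1.59 and 0.64. Those listed with the genes Solyc09g084450 to Solyc09g084490 and Solyc09g089490 to Solyc09g089540 were the third, at chr9:66598000-66632599, with 3577 2 h JA and 1745 ctrl reads, and the next but one, at chr9:66670600-66703999, with 5138 and 1624 reads. Their densities were 50.4 and 48.6 reads per kb in ctrl and 103 and 154 after JA. The domain between them, at chr9:66662400-66668799, had 41.1 reads per kb in ctrl and 149 after JA. No H3K4me3 domain of untreated seedlings overlapped it. The flanking domains changed by -0.06 and -0.11. The 6 domains held 11808 2 h JA and 4867 ctrl reads, a summed change of 1.20 (1.15 to 1.25). They were summed after their values were seen because each reached 0.5, so that the sum describes the chosen domains and not the whole stretch. Gaps of 33801 and 29801 bp split the stretch under the run rule, which kept the last 3 domains together.

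**Figure D5:**
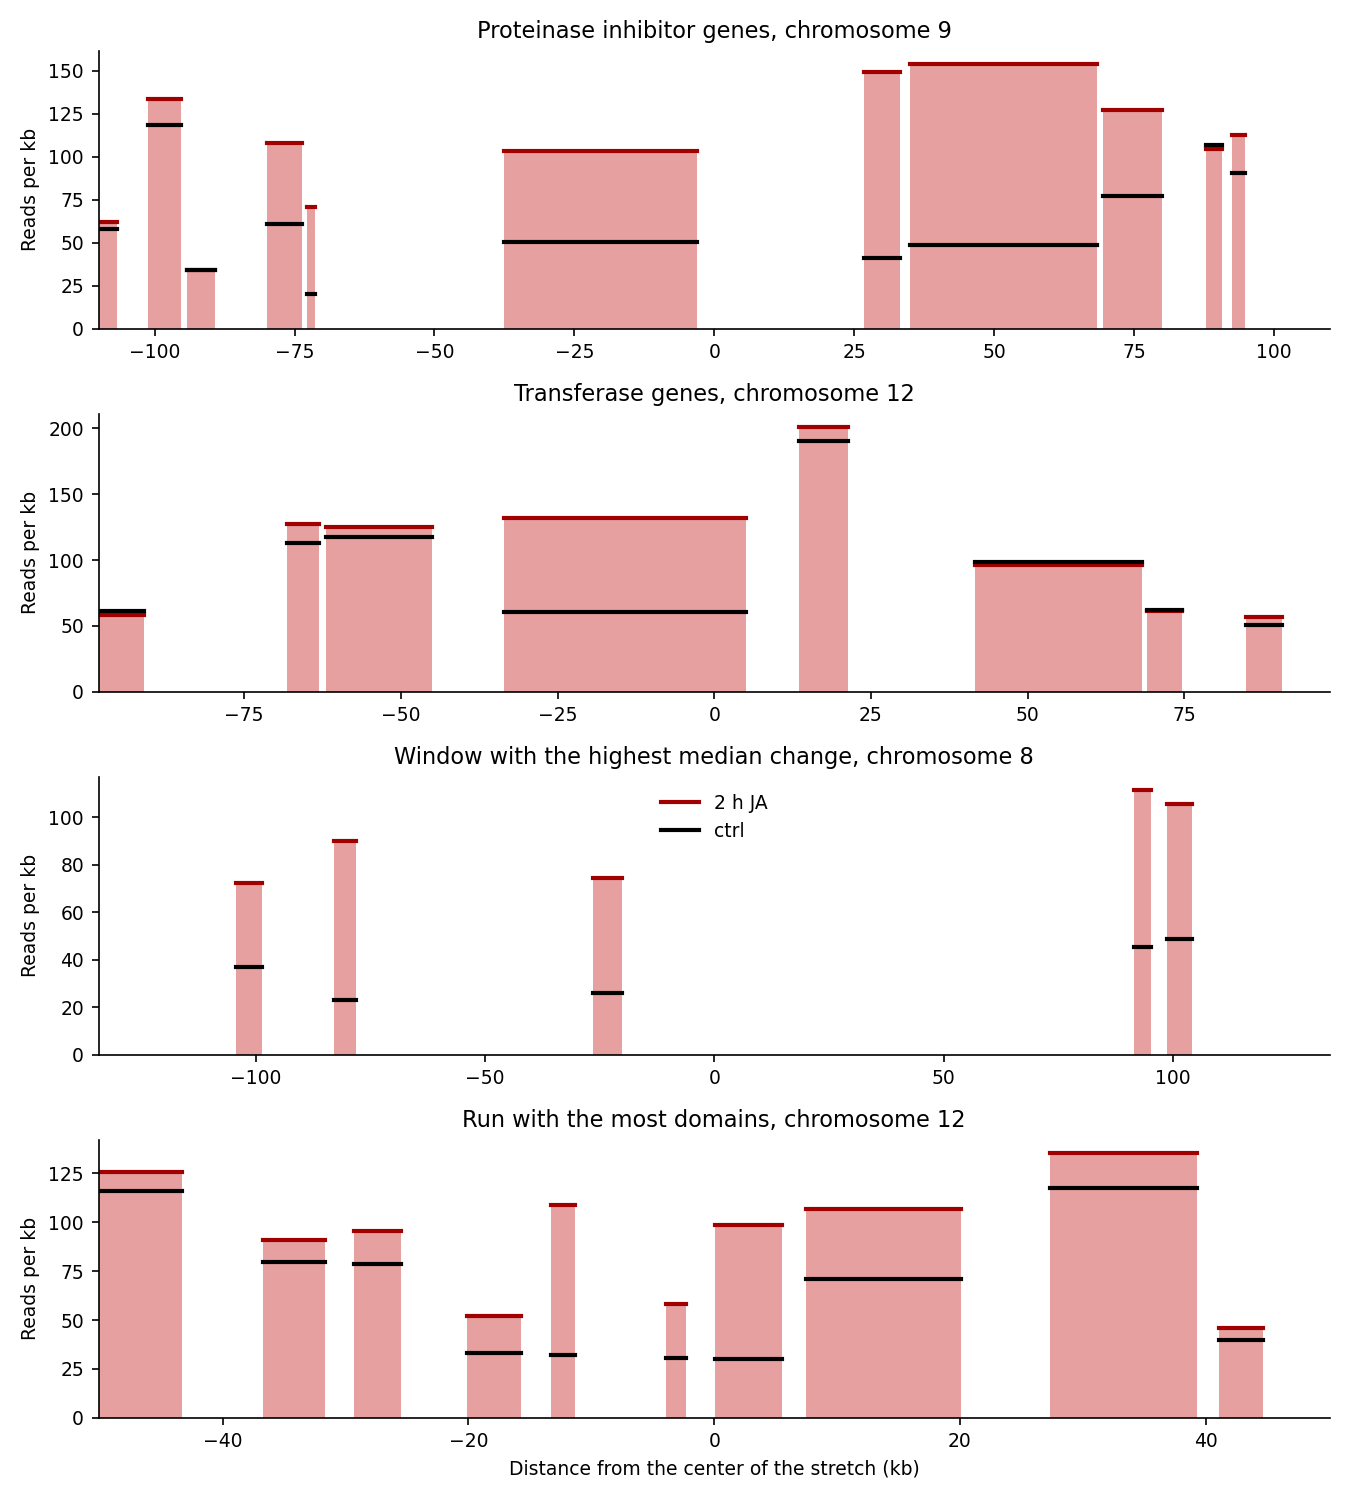
Reads per kb (y axis) of each domain are plotted against the distance from the center of the stretch (x axis, kb). Merged 2 h JA libraries are dark red and merged ctrl libraries black. The panels show the domains listed with proteinase inhibitor genes, the domain listed with transferase genes, the chromosome 8 window and the run with the most domains. Each block is as wide as its domain. In the inhibitor panel 6 blocks in a row have wide red-to-black distances, and in the transferase panel 1 block has.

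On every chromosome, the domain with the highest change, when a minimum of 100 reads over both libraries was asked for, was at least 2.28-fold above the median domain. These domains were 799 to 5599 bp wide, next to a median of 3999 bp over all domains. Of the 12, 11 were in density class 1, and a choice by high ratio favors few ctrl reads. In the outer parts lay 8 of the 12, as did 73.2% of all domains. H3K4me3 of untreated seedlings overlapped 8 of the 12 and 69.6% of all domains. In density class 1 it overlapped 7.10% of the domains, and 22.2% of those at or above 0.5. Among these 12, the highest outside chromosome 12 was at chr1:53912800-53913999, with 269 2 h JA and 21 ctrl reads and a change of 3.60 (2.96 to 4.32). It was followed by chr7:58171000-58172799, with 270 and 34 reads and a change of 2.91 (2.4 to 3.47), and by chr2:46895200-46896199, with 240 and 32 reads and a change of 2.83 (2.29 to 3.41). H3K4me3 covered all of the domains on chromosomes 1 and 2. On chromosome 9 the highest was at chr9:26695200-26695999, with 114 and 16 reads, a change of 2.76 (2.00 to 3.61) and no H3K4me3. Chromosomes 3 and 10 each reached 2.39, at chr3:3372000-3374199 with 287 and 52 reads and at chr10:53865800-53867399 with 138 and 25 reads. Chromosomes 5, 6 and 4 reached 1.84, 1.49 and 1.38, all without overlapping H3K4me3. The domain on chromosome 8, with 1.89, was the second of the 5 in its window. The lowest of the 12 was at chr11:15806400-15809799, which was also the only one outside class 1, with 626 2 h JA and 260 ctrl reads and a change of 1.19 (0.98 to 1.41).

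The 3 domains with the lowest changes were wide and rich in reads. They lay at chr3:65305000-65338399, with 4352 2 h JA and 4940 ctrl reads and a change of -0.26 (-0.32 to -0.20), at chr1:552200-599799, with 4279 and 4815 reads and a change of -0.25 (-0.31 to -0.19), and at chr3:63684200-63700399, with 1732 and 1948 reads and a change of -0.25 (-0.34 to -0.15). Each overlapped between 3 and 6 H3K4me3 domains. They held fewer 2 h JA than ctrl reads and were still listed, as the authors' caller scaled the libraries before it compared them. Since lower values were not listed, these changes mark the lower edge of the table, and they do not show a loss of H3K9ac.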

How the data were processed

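The authors used Bowtie2 (version 2.4.1) and the assembly SLM_r2.0.pmol to align the reads of 3 libraries per group, merged them by group and passed them to epic2, which the submitters' processing notes list as SICER (version 0.0.52), with ctrl as the control. The processing notes name another species' build for these libraries. The labels give sonication and the legend of the study MNase as the fragmentation. The deposited read counts are whole reads per domain, not normalized. The p-value, FDR, score and log2 fold change that the authors deposited hold their own comparison and were used only to see that each listed domain has a positive fold change and an FDR of at most 0.05. In the deposited H3K4me3 table, the log2 fold change over IgG served only as a threshold in an alternative.

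The change was computed without a pseudocount. Domains ranged from 31 to 6615 2 h JA reads and from 11 to 6703 ctrl reads, and depth limits the sparse domains most. Size is end minus start. The study has 3 libraries per group, but the table used here holds merged counts only, so that no test over libraries was run and no p-value is given. Named domains are those the study pairs with gene names, with 2 neighbors on each side, the highest on each chromosome, the 3 lowest, and the 5 top windows and runs. The 6 domains around those listed with inhibitor genes and the chromosome 12 windows were chosen after their values were seen. The members and lists were chosen with earlier results of these data known. Alternatives covered the scaling, a pseudocount, a read minimum, joined domains, chromosomes, positions, neighbors and overlap. Scripts were tested on simulated data. Computations ran in SciPy 1.17.1, NumPy 2.4.6 and pandas 2.3.3 under Python 3.11.15, and figures in matplotlib 3.10.9.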

Additional observations from a re-analysis of the deposited data

How the results depend on the processing

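The table used here gives 1 merged count per group, so no replicate was left out, although the study has 3 libraries per group. No paired analysis was possible because the columns of this table carry no replicate numbers. Over all alternatives, 29 values stayed within 1.5 times of the count or within the interval of the value, 21 moved out of it and 2 changed sign. With the study's uniquely aligned totals as the center, 1056 domains reached 0.5 and 150 reached 1, the medians were 0.26 in the lowest and 0.16 in the highest density class, and 0.17 in the outer parts and 0.19 in the interior, so that the highest class and the outer parts changed sign. By construction this adds 0.18 to every change. With summed reads as the center, the medians were -0.012 in the highest class, -4.4e-05 in the outer parts and 0.019 in the interior. With at least 50 ctrl reads, 55 domains reached 1 and the median of the lowest class was 0.071. Joining domains less than 2 kb apart left 13549 domains, of which 294 reached 0.5. The medians were then 0.072 in the lowest and -0.013 in the highest class, and the share of next neighbors at or above 0.5 was 13.6%. Settings that joined or left out domains counted fewer than the 17455 domains, so a lower count there is not in itself a lower share. Without chromosomes 9 and 12, which held 7 and 29 of the domains at or above 1, 58 domains reached 1. With the outer parts below 0.1 or above 0.9, the medians were -0.0078 and 0.0071. The neighbor share was 21.8% for neighbors less than 5 kb away and 38.0% for neighbors in the lowest class. H3K4me3 over at least 50% of the domain was found in 29.5% of domains. On chromosome 12, the share at or above 0.5 was 3.86% without its 3 richest windows and 18.5% in the lowest class; these and the neighbors of the lowest class were chosen after seeing the data. The pseudocount of 5 moved no value out of its range. No interval covers the spread between seedlings.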
